A study of Mus musculus with 6 samples.

Results

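Collagen genes were taken as the protein-coding genes whose symbol is Col, a number, the letter a and a number, and 44 of the 26852 genes in the deposited table met this rule. They were measured by RNA-sequencing of dissected midbrain at E14.5, with 3 libraries of Lmx1b fl/fl;Pitx3-Cre embryos, called Lmx1b cKO here, and 3 libraries of Lmx1b wt/wt;Pitx3-Cre embryos, called control. All embryos were C57Bl/6 and carried Cre in the Pitx3 locus, so that a Pitx3 allele was disrupted in both groups. Cre removes Lmx1b where Pitx3 is expressed, which in the midbrain is the dopaminergic neurons, and the vessels, meninges and other neurons in the dissected tissue keep the gene. RNA of a pair of embryos was pooled for each library, and embryos came from several litters.

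The table gives the mean of each group in normalized counts, which are read counts divided by a size factor for each library. The 3 whole numbers behind each mean were recovered by a search, with a single answer for all 44 collagen genes and for 97.7% of all genes. The recovered libraries carry their genotype but no sample number, and they are named a, b and c within a group by falling size factor, an order without meaning between the groups. The recovered genes held 19698212 to 23939149 reads in a library. Lmx1b itself had 1257 to 1455 normalized counts in the Lmx1b cKO, against 1352 to 1474 in the control, so its total does not check the labels. Otx2, a transcription factor of the midbrain, lay between 1613 and 1863 in all libraries, and the hindbrain genes Hoxa2, Hoxb2, Hoxb3 and Hoxb4 reached at most 5.31.

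Collagens are secreted proteins of 3 chains wound into a triple helix, and glycine is the only residue small enough to sit on the axis of that helix. Fibrillar collagens are laid down as long cables in skin, bone, cartilage and the meninges. Basement membrane collagens form sheets under vessels and epithelia, which in embryonic brain means the capillary walls and the surface under the pia. Fibril-associated collagens sit on the cables, the chains of type VI form beaded filaments beside them, and transmembrane collagens stay anchored in the cell that makes them.

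The coding sequences show these building plans. The stretches printed here are 90 bases each, read from GENCODE transcripts on GRCm38, with the glycine codons of the repeat in capitals. They are shown because the length of the unbroken repeat sets the fibrillar genes apart from the other classes.
Col1a2, bases 289 to 378 of the coding sequence: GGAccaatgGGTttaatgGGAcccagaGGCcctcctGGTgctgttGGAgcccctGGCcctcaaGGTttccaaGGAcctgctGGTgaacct
Col3a1, bases 490 to 579: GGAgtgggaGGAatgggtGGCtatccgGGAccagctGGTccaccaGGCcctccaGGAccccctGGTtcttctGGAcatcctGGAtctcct
Col9a2, bases 538 to 627: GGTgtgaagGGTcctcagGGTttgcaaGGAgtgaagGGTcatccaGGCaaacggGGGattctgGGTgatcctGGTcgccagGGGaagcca
Col4a1, bases 442 to 531: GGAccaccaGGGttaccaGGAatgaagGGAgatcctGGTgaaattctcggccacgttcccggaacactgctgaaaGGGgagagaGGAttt

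In Col1a2, Col3a1 and Col9a2 glycine codons recur every 3 codons without a break, 10 in each stretch. In Col4a1 the spacing is broken inside the stretch, and 7 codons belong to the repeat. Over the whole coding sequence, the longest unbroken run was 216 to 344 triplets in the 11 fibrillar genes, with a median of 338. It was 30 to 66 triplets in the 8 basement membrane genes (median 41) and 32 to 113 in the 9 fibril-associated genes (median 57). Col4a1 carried 22 separate runs of at least 4 triplets, and Col1a2 carried 2.

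**Figure D1:**
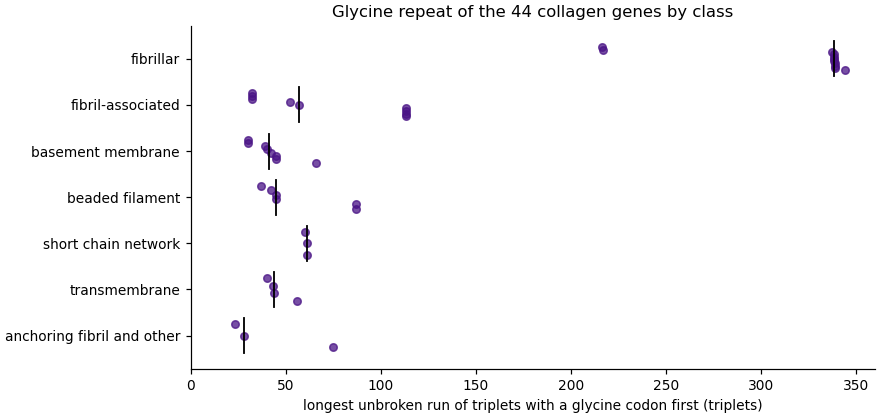
Each point is a collagen gene, placed by its longest unbroken run of triplets that start with a glycine codon (x axis, triplets) within its class (y axis). Black lines are class medians. The fibrillar genes lie at 216 triplets or more, and all other genes at 113 or fewer.

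Levels were compared between genes per kilobase of annotated exon, over the union of all transcripts. Averaged over the 6 libraries, Col4a1 and Col4a2, the chains of the basement membrane network of all vessels, were the most abundant collagen genes, with 632 and 608 normalized counts per kb. They were followed by Col2a1 with 411, Col9a2 with 356 and Col9a3 with 194 normalized counts per kb. Col2a1 encodes the cartilage fibril chain, which embryonic neuroepithelium also expresses, and type IX coats those fibrils. Col1a1, the main chain of bone and skin, ranked sixth with 170 per kb, but its level per kb ran from 1.62 in a control library to 929 in cKO library c.

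At the other end, 4 collagen genes had a mean normalized count under 10 and were not tested. Col13a1, a transmembrane collagen, had a single read in all 6 libraries, where a count of 0 allows up to 3 reads. Col10a1, a mark of hypertrophic cartilage, had 0 to 7.40 normalized counts. Col17a1, from the anchoring junctions of skin, had 3.24 to 13.1, and Col4a3, a chain of kidney basement membrane, had 3.84 to 16.2.

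The comparison of genotypes asked which genes respond to the loss of Lmx1b in Pitx3-expressing cells, and limma with voom weights was fitted to all 16555 recovered genes that averaged 10 or more normalized counts over the 6 libraries. These included 40 collagen genes, all of which also reached that level in the control alone. In bulk tissue, fewer cells of a type and less RNA per cell cannot be told apart. No collagen gene passed the Benjamini-Hochberg adjusted threshold of 0.05 in limma, as was the case for all genes tested (0%), and the adjusted p was 1.00 for each of the 40. At an unadjusted limma p under 0.05, 5 collagen genes were higher in the Lmx1b cKO, against a background of 1.19% of all genes tested, and 0 were lower, against 1.62%. limma-trend gave 7 and 0. The 5 genes were Col6a2, Col5a2, Col6a1, Col3a1 and Col5a1, all of them fibrillar or type VI chains. Every Lmx1b cKO library lay above every control library for 6 of the 40 genes (background 3.89%) and below for 0 (background 3.82%).

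For the collagen genes, the libraries of the Lmx1b cKO differed more from each other than those of the control. The coefficient of variation of a tested collagen gene had a median of 12.7% in the control and 27.9% in the Lmx1b cKO, where all genes tested had 8.16% and 8.64%. The highest library was at least 3 times the median of the 6 libraries for 9 of the 40 collagen genes, against a background of 0.815% of all genes tested. All 9 were highest in cKO library c. That library was the highest of the 6 for 23 collagen genes, or 57.5%, where it was the highest for 16.4% of all genes tested. The median log2 fold change of the 40 genes was 0.07, with 24 above 0, against -0.00021 for all genes tested. Without cKO library c it was -0.053, with 16 of 40 above 0, against 0.0019 for all genes. Col4a3 was tested there in place of Col4a4.

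**Figure D2:**
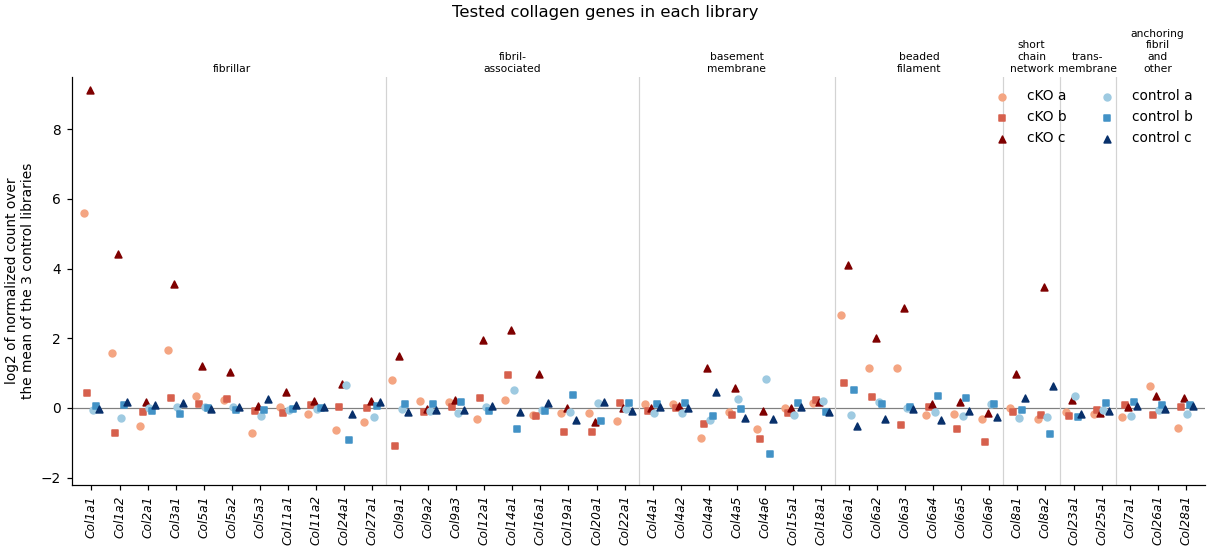
The log2 of the normalized count in each library over the mean of the 3 control libraries (y axis) is drawn for the 40 tested collagen genes (x axis, grouped by class). Red points are the Lmx1b cKO and blue points the control libraries. cKO library c stands above the rest in Col1a1, Col1a2, Col3a1, Col6a1, Col6a2, Col6a3, Col12a1, Col14a1 and Col8a2, and all libraries lie close together for Col4a1 and Col4a2.

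Among the fibrillar genes, Col1a1 (ENSMUSG00000001506, GRCm38 chromosome 11, 94936224 to 94953042) had 532, 14.8 and 6097 normalized counts in cKO libraries a, b and c and 10.6, 11.5 and 10.8 in control libraries a, b and c. The control values rest on 12, 12 and 10 reads. All Lmx1b cKO libraries lay above all control libraries, and library c stood 555-fold and library a 48.5-fold above the control mean, while library b was close to the control. The group means were 2215 ± 3372 and 11 ± 0.481 (SD, n = 3), and the log2 fold change was 5.00 ± 4.55 (SE; limma, unadjusted p = 0.295). The SD of the Lmx1b cKO libraries was larger than the difference between the group means. With limma-trend the unadjusted p was 0.00524, and no adjusted p passed there either.

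Col1a2 (ENSMUSG00000029661, chromosome 6, 4504814 to 4541544), the second chain of type I collagen, had 594, 123 and 4315 normalized counts in the Lmx1b cKO, against 165, 212 and 225 in the control. Here the groups overlapped, because cKO library b was the lowest of all. In limma its log2 fold change was 1.76 ± 1.18 (SE), and 0.51 without cKO library c. With libraries a and c both left out it was -0.68, so the direction of this gene rests on those libraries.

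Col3a1 (ENSMUSG00000026043, chromosome 1, 45311538 to 45349706), the chain of the loose fibrils around vessels and in meninges, had 626, 240 and 2319 normalized counts in the Lmx1b cKO, against 200, 172 and 215 in the control. All Lmx1b cKO libraries were above all control libraries, library b by a small margin. The limma log2 fold change of Col3a1 was 1.84 ± 0.77 (SE, unadjusted p = 0.0349). Without cKO library c limma gave 1.03 (unadjusted p = 0.0122). Leaving out any control library moved the unadjusted p in limma above 0.05, up to 0.0798.

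Type V collagen starts and thins the fibrils of types I and III, and its chains Col5a1 and Col5a2 were also higher, by less. Col5a2 (ENSMUSG00000026042, chromosome 1, 45374321 to 45503282) had 1062, 1075 and 1819 normalized counts in the Lmx1b cKO, against 915, 868 and 912 in the control. The groups did not overlap, and libraries a and b also lay above the control. Its limma log2 fold change was 0.50 ± 0.17 (SE, unadjusted p = 0.0140), and 0.25 without cKO library c. With any single library left out, the unadjusted p in limma was at most 0.0384. Col5a1 (ENSMUSG00000026837, chromosome 2, 27886425 to 28039514) had 535, 455 and 984 against 437, 424 and 414 normalized counts. The groups again did not overlap, with library b close to the control. Its limma log2 fold change was 0.53 ± 0.23 (SE, unadjusted p = 0.0379). Without cKO library c limma gave 0.22 (unadjusted p = 0.0948).

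Col2a1, Col11a1 and Col11a2, the fibril chains of cartilage, were also highest in cKO library c, and their groups overlapped. Col2a1 (ENSMUSG00000022483) had 2765, 3690 and 4452 normalized counts in the Lmx1b cKO, against 3950, 3757 and 4171 in the control. cKO library a was the lowest and library c the highest, and the control lay between them. Here limma gave a log2 fold change of -0.16 ± 0.13 (SE, unadjusted p = 0.242). Leaving out cKO library c gave -0.31 (limma, unadjusted p = 0.0108), and leaving out cKO library a gave 0.036. Col11a1, its partner in the fibril, had 1262 to 1887 normalized counts in the Lmx1b cKO, against 1339 to 1462 in the control. Col11a2 had 802 to 1044 against 899 to 930. The remaining fibrillar genes Col5a3, Col24a1 and Col27a1 had log2 fold changes of -0.25, 0.12 and -0.059. Of the 11 fibrillar genes, 10 were highest in cKO library c (background 16.4%). The class median log2 fold change of 0.12 became -0.050 without that library. Without cKO library a the class median was 0.47, and without control library a it was 0.51.

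**Figure D3:**
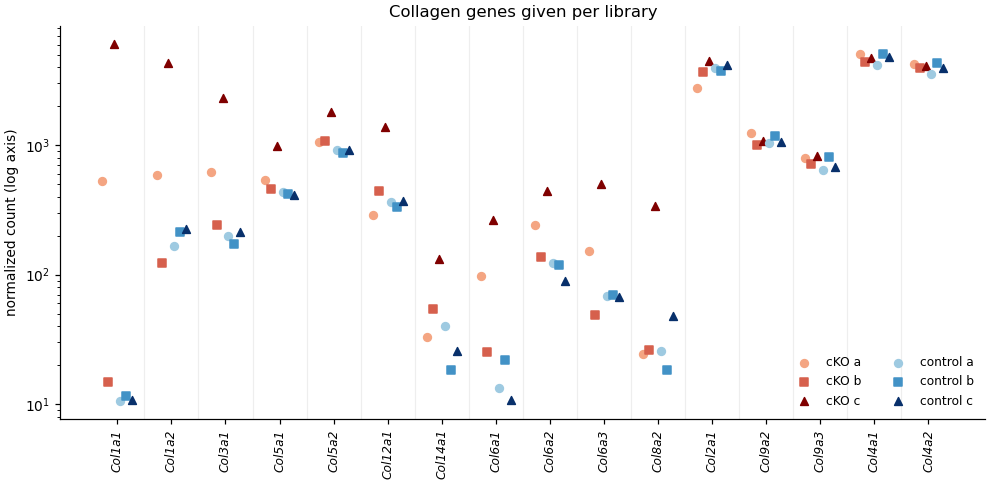
Normalized counts (y axis, log axis) of the 16 collagen genes described by library, with the 3 Lmx1b cKO libraries in red and the 3 control libraries in blue. Col1a1 runs from 10.6 in a control library to 6097 in cKO library c, while all values of Col4a1 lie between 4200 and 5111.

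Type VI collagen is built from Col6a1, Col6a2 and one more chain, in most connective tissue Col6a3. Col6a1 (ENSMUSG00000001119, chromosome 10, 76708792 to 76726168) had 97.4, 25.4 and 266 normalized counts in the Lmx1b cKO, against 13.3, 22.1 and 10.8 in the control. The control values rest on 15, 23 and 10 reads. The groups did not overlap, and the gap between cKO library b and control library b was small. The limma log2 fold change of Col6a1 was 2.52 ± 0.97 (SE, unadjusted p = 0.0238). Without cKO library c limma gave 1.77 (unadjusted p = 0.0171), and without control library a or c the unadjusted limma p was 0.0644 or 0.0669.

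Col6a2 (ENSMUSG00000020241, chromosome 10, 76595762 to 76623630) had 243, 137 and 441 normalized counts in the Lmx1b cKO, against 124, 119 and 88.6 in the control, again without overlap. With limma its log2 fold change was 1.14 ± 0.38 (SE, unadjusted p = 0.0113), the smallest p of the 40 collagen genes, and 0.74 without cKO library c. With any single library left out the unadjusted limma p was at most 0.0432, and with cKO libraries a and c both left out it was 0.297. Col6a3 (ENSMUSG00000048126) had 152, 48.6 and 501 against 68.1, 69.2 and 67.0 normalized counts. cKO library b lay under the control and the groups overlapped, with a log2 fold change of 1.17 ± 0.71 (SE; limma, unadjusted p = 0.125). Without cKO library c the log2 fold change was 0.38, and with library a left out as well it was -0.48.

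The alternative chains Col6a4, Col6a5 and Col6a6 were each highest in a control library. Col6a4 had 93.4 ± 9.93 normalized counts in the Lmx1b cKO, against 94.1 ± 23.5 in the control, Col6a5 had 50.2 ± 13.4 and 56.3 ± 10.6, and Col6a6 had 35.3 ± 9.86 and 47.4 ± 6.44 (SD, n = 3). Their log2 fold changes ran from -0.46 to -0.0020, and no unadjusted p in limma was under 0.05.

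Of the fibril-associated genes, Col12a1 (ENSMUSG00000032332), which coats type I fibrils in tendon and bone surface, had 287, 440 and 1393 normalized counts in the Lmx1b cKO, against 365, 336 and 369 in the control. cKO library c was high, library a was the lowest of all, and the groups overlapped. Its log2 fold change was 0.61 ± 0.45 (SE), and -0.022 without cKO library c. Col14a1 (ENSMUSG00000022371), a relative of Col12a1, had 32.8, 53.9 and 133 against 39.8, 18.3 and 25.9 normalized counts. cKO library a lay within the control range, and its log2 fold change was 1.14 ± 0.53 (SE; limma, unadjusted p = 0.0538). The unadjusted p was 0.0267 with limma-trend, and 0.177 in limma without cKO library c.

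The type IX chains coat type II fibrils. Col9a2 (ENSMUSG00000028626) had 1249, 1011 and 1070 normalized counts in the Lmx1b cKO, against 1036, 1187 and 1061 in the control. Col9a3 (ENSMUSG00000027570) had 795, 721 and 829 against 644, 805 and 683. Both overlapped between the groups, with log2 fold changes of 0.023 ± 0.092 and 0.14 ± 0.10 (SE). The remaining chain, Col9a1, was far lower and less even, at 16.9 to 102 normalized counts in the Lmx1b cKO, against 33.5 to 39.4 in the control. Exons of Col9a3 overlap Tcfl5 on the opposite strand over 6.07% of their length, and the sources used here do not say whether the counting used the strand.

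Of the other fibril-associated genes, Col16a1 had 253 ± 132 normalized counts in the Lmx1b cKO, against 206 ± 17.7 in the control (SD, n = 3), with 405 in cKO library c. Col22a1, a collagen of tissue junctions, had 773 ± 139 and 811 ± 67.9. Col19a1 and Col20a1 had means of 42.8 to 59.5 in both groups and log2 fold changes of -0.24 and -0.37. The median of the 9 genes was 0.14, with 6 above 0, and -0.093 without cKO library c.

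Of the 7 classes, the basement membrane genes had the lowest median coefficient of variation among the Lmx1b cKO libraries, 7.25%, against 13.5% in the control. Col4a1 (ENSMUSG00000031502, chromosome 8, 11198423 to 11312826) had 5111, 4425 and 4709 normalized counts in the Lmx1b cKO, against 4200, 5050 and 4814 in the control. Col4a2 (ENSMUSG00000031503, chromosome 8, 11312805 to 11449287) had 4244, 3973 and 4127 against 3558, 4305 and 3954. The libraries of both groups were intermixed for both genes. Their log2 fold changes were 0.026 ± 0.073 and 0.070 ± 0.067 (SE), and both were below 0 when control library a was left out, at -0.055 and -0.0056. The exons of these genes share 22 bases on opposite strands.

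The genes of the rarer type IV chains were lower and noisier. Col4a5 had 493 ± 155 normalized counts in the Lmx1b cKO, against 452 ± 86.8 in the control (SD, n = 3), and Col4a6 had 56.2 ± 16.7 and 78.7 ± 56.0, with 141 in control library a. Col4a4 had 5.62 to 22.7 and 7.96 to 14. Col15a1 and Col18a1, the collagens whose ends are cut off as restin and endostatin, had 267 ± 16.1 and 671 ± 18.4 in the Lmx1b cKO, against 274 ± 32.8 and 588 ± 79.6 in the control. The log2 fold changes of the 7 tested genes ran from -0.30 to 0.19 with a median of 0.026, and 0 had an unadjusted p under 0.05 in limma.

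Of the short chain network collagens, Col8a2 (ENSMUSG00000056174), a chain of the sheet under the corneal endothelium and of vessel walls, had 24.4, 26.4 and 337 normalized counts in the Lmx1b cKO, against 25.7, 18.3 and 47.5 in the control. cKO library c stood alone, and the log2 fold change of 1.05 ± 0.92 (SE) became -0.12 without it. Col8a1 had 231 ± 104 and 178 ± 35.4 (SD, n = 3). Among the remaining genes, the transmembrane Col25a1, which neurons express, had 1353 ± 64.2 normalized counts in the Lmx1b cKO, against 1479 ± 144 in the control, and Col23a1 had 122 ± 20.1 and 124 ± 29.6. Col7a1, the anchoring fibril of skin, had 183 ± 23.2 and 188 ± 26.3, Col26a1 had 504 ± 141 and 411 ± 24.8, and Col28a1 had 100.2 ± 28.9 and 103.1 ± 9.79. None of these had an unadjusted p under 0.05 in limma.

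**Figure D4:**
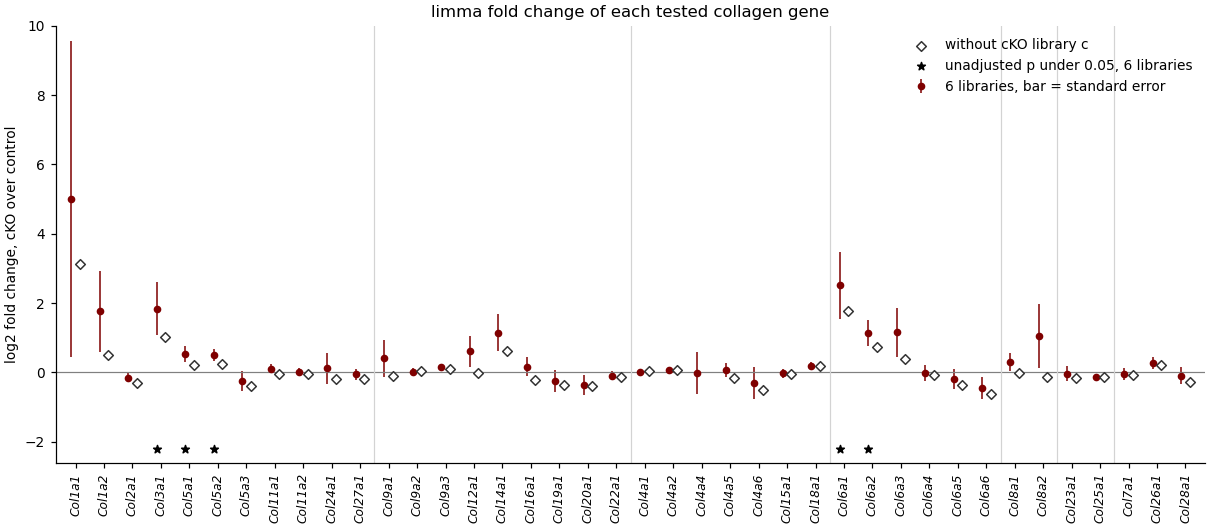
The limma log2 fold change of Lmx1b cKO over control (y axis) is drawn for the 40 tested collagen genes (x axis, grouped by class), with its standard error for all 6 libraries (red) and without cKO library c (open diamonds; Col4a4 fell under the minimum mean there). Stars mark the 5 genes with an unadjusted p under 0.05, and the open diamond lies nearer to 0 than the red point for each of them.

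Summed by class, the normalized counts of the fibrillar genes were 8660, 8289 and 23465 in the Lmx1b cKO, against 8335, 8169 and 8866 in the control. Libraries a and b of the Lmx1b cKO lay within the control range, and library c was far above it, so the ratio of group means was 1.59, and 1.00 without library c. The basement membrane sums ran from 9794 to 10771 in the Lmx1b cKO, against 9372 to 10691 in the control, a ratio of 1.03. The fibril-associated sums were 3325, 3377 and 4836 against 3221, 3576 and 3261, with a ratio of 1.15, and 0.999 without library c. The beaded filament sums were 662, 369 and 1417 against 392, 450 and 334, where library a was also high. Their ratio was 2.08, and 1.32 without library c.

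All 44 genes together had 25909, 24230 and 43281 normalized counts in the Lmx1b cKO, against 23715, 25595 and 24981 in the control. Per kilobase, the fibrillar class made up 47.8% of the collagen signal in cKO library c and 24.8% to 27.9% in the other 5 libraries, and the basement membrane class made up 27.1% and 41.9% to 43.8%. In cKO library c, Col1a1, Col1a2 and Col3a1 held 65.8% of the summed positive differences from the control means, and in cKO library a they held 41.6%. In cKO library b the summed difference of these 3 genes was -30.2 normalized counts.

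**Figure D5:**
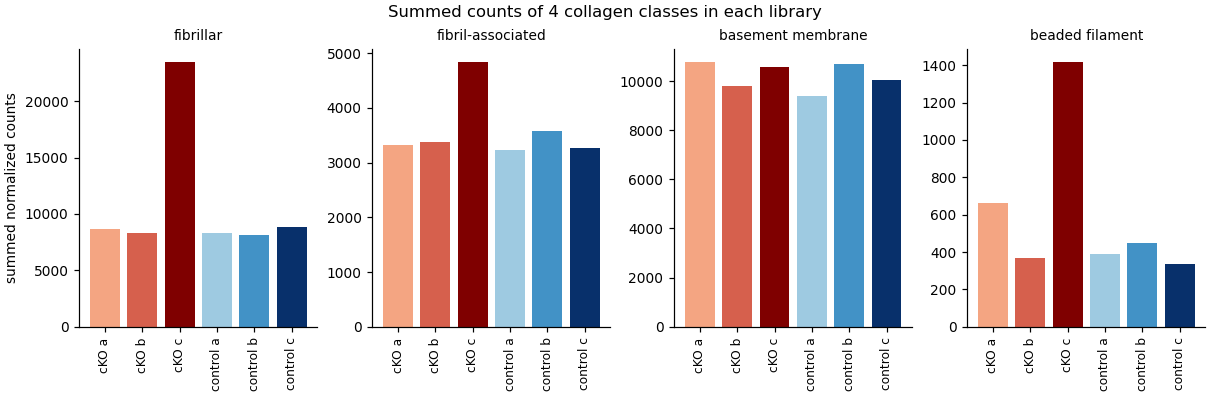
Summed normalized counts (y axes, from 0, scaled per panel) of the fibrillar, fibril-associated, basement membrane and beaded filament classes in each library (x axis), with the Lmx1b cKO in red and the control in blue. cKO library c holds the tallest bar in 3 panels, and the basement membrane bars lie between 9372 and 10771.

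Chains of the same trimer were compared as the ratio of their reads within a library, which does not depend on the size factor, for 10 pairs. The Col4a1/Col4a2 ratio was the steadiest of them, at 1.2, 1.11 and 1.14 in the Lmx1b cKO, against 1.18, 1.17 and 1.22 in the control, with a log2 difference of -0.046 (two-sided exact permutation p = 0.3). These genes start 21 bases apart on opposite strands of chromosome 8 in RefSeq. Col5a1/Col5a2 was also steady, between 0.424 and 0.541 in all libraries, although both genes were higher in cKO library c.

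The Col1a1/Col1a2 ratio was 0.896, 0.124 and 1.41 in the Lmx1b cKO, against 0.0667, 0.0564 and 0.0504 in the control. In the control, reads of Col1a2 thus outnumbered those of Col1a1, and cKO library c was the only library with more reads of Col1a1. The groups did not overlap, with a log2 difference of 3.23 (two-sided exact permutation p = 0.1 and 0.5 after adjustment over the 10 pairs). With 3 libraries in each group this test cannot go below 0.1. The Col6a3/Col6a1 ratio was 1.56, 1.90 and 1.88 in the Lmx1b cKO, against 5, 3.09 and 5.95 in the control, also without overlap. Its log2 difference was -1.35 (exact permutation test, p = 0.1, adjusted 0.5), and the control ratios rest on 15, 23 and 10 reads of Col6a1. The groups overlapped for the other 8 pairs, among them Col6a1/Col6a2 with a log2 difference of 1.37 (exact permutation test, p = 0.2).

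Some collagen genes lie next to each other, and the annotation gives 8 pairs within 100 kb. Col3a1 and Col5a2 are 24.6 kb apart on chromosome 1, on opposite strands, and Col6a1 and Col6a2 are 85.2 kb apart on chromosome 10, and all of these had an unadjusted limma p under 0.05. Col9a1 and Col19a1, 9.21 kb apart on chromosome 1, had log2 fold changes of 0.41 and -0.24, and -0.093 and -0.37 without cKO library c. Col4a5 and Col4a6, 1.31 kb apart on the X chromosome, had 0.075 and -0.30, and -0.16 and -0.51 without it, and none of these genes had an unadjusted p under 0.05 in limma.

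Collagen chains need enzymes to modify, export, trim and crosslink them. Of 71 genes in 7 lists of these steps and partners, 66 were tested, 2 were higher at an unadjusted limma p under 0.05 (background 1.19%) and 0 lower (background 1.62%), and the median log2 fold change was 0.014. Both were crosslinking enzymes of the lysyl oxidase family. Lox (ENSMUSG00000024529) had 47.8, 39.1 and 274 normalized counts in the Lmx1b cKO, against 27.4, 18.3 and 15.1 in the control, without overlap of the groups and with cKO library c on top. Its limma log2 fold change was 1.94 ± 0.80 (SE, unadjusted p = 0.0332). Without cKO library c limma gave 1.105 (unadjusted p = 0.0180). Loxl2 had 67.5, 66.6 and 103 against 54.9, 40.3 and 44.3 normalized counts, also without overlap, with a log2 fold change of 0.72 ± 0.28 (SE; limma, unadjusted p = 0.0252). Without a single library, the largest unadjusted p in limma was 0.0884 for Lox (without control library c) and 0.0970 for Loxl2 (without cKO library c). Exons of Loxl2 overlap Gm27177 on the opposite strand over 5.57% of their length.

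Of the 18 genes of chain modification and folding, 0 had an unadjusted p under 0.05 in limma, with a median log2 fold change of 0.019 and a range from -0.24 to 0.22. Serpinh1, the collagen chaperone Hsp47, had 2424, 2971 and 3577 normalized counts in the Lmx1b cKO, against 3150, 2646 and 2787 in the control. The 7 export genes, such as the cargo receptor Mia3, ran from -0.078 to 0.089, and 0 of the 8 propeptide cleavage genes had an unadjusted p under 0.05 in limma. Among 10 partners of fibrils, Lum, a small proteoglycan that spaces fibrils in cornea and skin, had 62.8, 3.17 and 306 normalized counts in the Lmx1b cKO, against 1.77, 0 and 0 in the control. Of the 9 tested partners, 8 were highest in cKO library c (background 16.4%). Their median log2 fold change was 0.39, and without that library it was 0.053 over the 8 still tested.

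Markers of other tissues were read in the same libraries. The summed normalized counts of 9 bone genes were 220, 280 and 671 in the Lmx1b cKO, against 322 to 359 in the control, with Ibsp, a bone matrix protein, at 163 and Sp7, the osteoblast factor, at 40.0 in cKO library c and both at 2.88 or less in every other library. The bone genes Bglap and Dmp1 were not high there, at 3.25 and 14.1. The sums of 9 cartilage genes were 46.8, 14.8 and 208 in the Lmx1b cKO, against 34.5 to 47.5 in the control. In cKO library c, Cnmd and Acan held 84.4 and 49.8 of that sum, and Comp and Ucma were at 0. The sums of 10 meningeal genes were 796, 763 and 993 against 633 to 731. They include the fibril partner Ogn, with 43.1, 18.0 and 210 in cKO libraries a, b and c. Of the 7 tested meningeal genes, 4 were highest in cKO library c (background 16.4%), while Crabp2 and Foxd1 were lowest there among the Lmx1b cKO libraries. In cKO library a, where Col1a1 was also high, Ibsp and Sp7 were at 0.937 each. The skeletal muscle sums were 88.8 to 147 and 103 to 181, with Myod1, Myog and Myf5 at 0 in all control libraries. In cKO library a Myf5 was at 4.68 and Myod1 at 2.81, both at 0 in libraries b and c, and Myog was at 0, 1.06 and 2.16 in libraries a, b and c. The part of bone, cartilage, meningeal or muscle RNA in the collagen differences was not tested. The 10 endothelial genes summed to 6585 to 6863 in the Lmx1b cKO, against 6281 to 6930 in the control, and the 8 pericyte genes to 9070 to 9282 and 8903 to 9328, with cKO library c inside the control range for both. The midbrain sums were 13944 to 15615 in the Lmx1b cKO, lowest in library a, and 16025 to 16938 in the control, with 3 of 11 tested genes, En1, En2 and Pitx3, lower at an unadjusted limma p under 0.05 (background 1.62%). With a library left out, the largest unadjusted p in limma was 0.00742 for En1, 0.00539 for En2 and 0.210 for Pitx3 (without cKO library a). Of 3 tested genes in the list of forebrain and hindbrain markers, 1 was higher at an unadjusted limma p under 0.05 (background 1.19%). It was Emx2, a transcription factor of forebrain and midbrain, at an unadjusted limma p of 0.0477, and 0.182 without cKO library c.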

How the data were processed

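Midbrain RNA of 3 Lmx1b cKO and 3 control libraries was sequenced, and the submitters' processing notes name TopHat 1.0.14, Bowtie2 2.1.0, HTSeq 0.6.1p1, DESeq 1.10.1 and GRCm38.p4. The deposited coverage values are means over the libraries of a group, for which the authors first scaled each library's read counts with its own size factor. The authors' deposited ratio of the group means, log2 fold change, p-value and adjusted p-value were not used. Lines that name no gene (31.8% of mean counts) were left out.

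The whole reads of each library were recovered from the group means by a search over sums of up to 30000 reads. It left out 604 genes above that limit and 19 without a single answer, and the 26229 recovered genes held 66.3% of normalized gene counts. The labels do not say that the libraries of a group share no litter, so p-values measure the spread between these libraries only. limma 3.58.1 (R 4.3.3) with voom weights was fitted to all recovered genes with a mean of at least 10, with Benjamini-Hochberg adjustment. Chain ratios used a pseudocount of 0.5 read and an exact permutation test over libraries (scipy 1.17.1). Other steps used Python 3.11.15, numpy 2.4.6, pandas 2.3.3, numba 0.67.0 and matplotlib 3.10.9, and the scripts were tested on simulated data. Exon lengths, positions and coding sequences came from GENCODE on GRCm38, with the length of a gene as the union of its exons, so that genes with long rarely used exons have low values per kb. Values per library were given for the 6 collagen genes with the highest level per kb, those with an unadjusted p under 0.05, and those whose highest library was at least 3 times the median. The members and gene lists were chosen with earlier results of these data known. Alternatives were limma-trend, library weights, other size factors, quantile normalization, other minimum means and each library left out. The summed level of the forebrain and hindbrain markers is not reported here.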

Additional observations from a re-analysis of the deposited data

How the results depend on the processing

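No paired analysis was possible because the recovered libraries carry no sample number. The deposited headers use the same library numbers in both groups, but the recovered libraries cannot be tied to them. No collagen gene passed an adjusted p of 0.05 in limma under any alternative run. The count of 5 genes higher at an unadjusted p under 0.05 was 4 to 7 under the other weights, size factors and minimum means, and 2 (without control library c) to 9 (without cKO library b) with a library left out, and the count of lower genes was then 0 to 1. The share of all genes tested that were higher moved as well: it was 1.19%, ran from 1.01% to 1.78% under the former, and was 0.768% without control library c and 1.37% without cKO library b. Leaving out cKO libraries a and c together, an alternative chosen after seeing the data, gave 1 higher (all genes 1.63%) and 1 lower, and log2 fold changes of the opposite sign for Col4a1 (-0.076), Col6a3 (-0.48), Col9a2 (-0.11), Col1a2 (-0.68) and Col8a2 (-0.063). With a single Lmx1b cKO library left, its spread is assumed to be that of the control. Library weights gave -0.013 for Col4a1. The fibrillar median of 0.12 ran from 0.11 to 0.49 over the other weights, size factors and minimum means, and from -0.050 to 0.51 with a library left out. With a library left out, the sign also turned for 24 of the 40 tested genes, 18 of them not given by library. Among those given by library these were Col4a1 (-0.055 to 0.084), Col4a2 (-0.0056 to 0.14), Col12a1 (-0.022 to 1.13), Col9a2 (-0.071 to 0.088), Col2a1 (-0.31 to 0.036) and Col8a2 (-0.12 to 1.74). The same held for the log2 differences of Col4a5/Col4a6 (-0.036 to 0.89), Col5a1/Col5a2 (-0.033 to 0.14), Col8a1/Col8a2 (-1.28 to 0.11), Col9a1/Col9a2 (-0.18 to 1.06), Col9a1/Col9a3 (-0.23 to 0.94) and Col11a1/Col11a2 (-0.0042 to 0.23). The cause of these changes was not tested. The control values of Col1a1 rest on 10 to 12 reads and those of Col6a1 on 10 to 23, which limits the precision of their fold changes.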

Other observations

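Of 12 partners of type IV collagen in the basement membrane, 11 were tested, with log2 fold changes from -0.10 to 0.15 and a median of -0.017, and 0 had an unadjusted p under 0.05 in limma. Lamc1, the laminin chain shared by most laminins, had 2093, 2136 and 2474 normalized counts in the Lmx1b cKO, against 2288, 2288 and 2305 in the control. Hspg2, which encodes perlecan, had 1054, 1085 and 1246 against 1095, 1134 and 1185. Nid2, a linker of laminin and type IV collagen, had 527, 481 and 761 against 534, 480 and 539. Of the 11 tested genes, 8 were highest in cKO library c (background 16.4%). The median coefficient of variation was 14.3% among Lmx1b cKO libraries, against 6.30% in the control. The reads of Agrn were not recovered.

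Of 11 collagen receptor genes, 9 were tested, with log2 fold changes from -0.22 to 0.31. Itgb1, the beta chain of the collagen-binding integrins, had 4145 ± 220 normalized counts in the Lmx1b cKO, against 4182 ± 290 in the control, and Ddr1, a receptor kinase for collagen, had 4519 ± 394 and 4584 ± 245 (SD, n = 3). Ddr2, its relative in mesenchymal cells, had 168, 168 and 266 against 166, 163 and 138, highest in cKO library c and with all Lmx1b cKO libraries above the control.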
